A study of Mus musculus with 24 samples.

Results

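The regions described here are 440 of the 4182 regions in a list of MeDIP-seq regions named for the mutant cells. Each of the 440 overlapped by 1 bp or more an H3K4me3 peak of IDH1 R132H cells, untreated or given vitamin C, and overlapped no region of the deposited MeDIP list called deMR. They are called member regions below. Members were chosen by the measured H3K4me3 peaks and by the absence of a deMR, so those 2 properties are descriptions and not findings. The rest of the list held 54 regions in H3K4me3 peaks that overlapped a deMR, and 3688 regions outside H3K4me3 peaks, of which 3411 overlapped no deMR. The list is attached to the MeDIP-seq sample of untreated cells with the IDH1 wt vector. Its threshold, its direction and the libraries it compares are not stated in the sources used here, and it holds positions only. A member region is therefore a place that the authors listed, not a measured methylation level.

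All cells came from mouse bone marrow and had been immortalized with HOXA9, a homeodomain protein that blocks the maturation of myeloid progenitors. They carried a vector for IDH1 R132H, or for IDH1 wt in 2 MeDIP-seq samples, and grew with IL-3, IL-6 and SCF. Treated cells received vitamin C to 0.345 mM at 0, 24 and 48 h and were harvested at 72 h. The groups used were untreated IDH1 wt (the mutant MeDIP list), and untreated and vitamin C IDH1 R132H cells (all other lists and the RNA-seq). Every one of the 24 samples was a group of its own with 1 library. No test between conditions was possible, and the intervals given are exact 95% intervals that cover counting error only.

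IDH1 R132H makes 2-hydroxyglutarate, a competitor of 2-oxoglutarate in dioxygenases. Among these are the TET enzymes, which turn 5-methylcytosine into 5-hydroxymethylcytosine and for which vitamin C is a reducing cofactor. H3K4me3 marks the start of genes that are transcribed or poised, most of them in DNA rich in CG, where cytosine is usually unmethylated. A DNA methyltransferase complex reads the unmethylated tail of histone H3, so H3K4me3 and methylated cytosine tend to stay apart in mammalian genomes. MeDIP-seq recovers fragments with an antibody to methylated cytosine and reports a stretch of a fragment's length, not a single base. Both kinds of list come from populations of cells, so an overlap does not place both marks on the same DNA molecule.

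Promoter sequence was read for the 66 RefSeq windows (62 genes, build GRCm38.p6, the assembly of mm10) that overlapped a member region. A window runs from 250 bases before to 50 bases after a transcription start. The 8 windows below are shown because their genes carry the results that follow. Ednrb lies in the longest regions and in 2 other methylation lists. Igf1 had lower RNA with vitamin C, Spats2 is in the authors' deposited table of higher genes, and the Gcnt2 region held a whole WGBS iMR. Pik3cd had the highest RPKM, Tet3 encodes a TET enzyme, and the member regions at Slc22a4 and Ckap4 overlapped hydroxymethylation regions. Those at Slc22a4 lay on either side of the printed window and not in it. Capitals mark CG dinucleotides, and each line runs 5′ to 3′ on the strand of the gene.
Ednrb chr14:103843652-103843951 minus strand: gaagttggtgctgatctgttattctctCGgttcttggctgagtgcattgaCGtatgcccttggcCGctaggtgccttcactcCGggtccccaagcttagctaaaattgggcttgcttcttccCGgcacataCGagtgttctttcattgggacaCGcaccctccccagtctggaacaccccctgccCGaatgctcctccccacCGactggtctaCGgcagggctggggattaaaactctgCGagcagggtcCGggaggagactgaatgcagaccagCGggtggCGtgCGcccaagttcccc
Igf1 chr10:87860861-87861160 plus strand: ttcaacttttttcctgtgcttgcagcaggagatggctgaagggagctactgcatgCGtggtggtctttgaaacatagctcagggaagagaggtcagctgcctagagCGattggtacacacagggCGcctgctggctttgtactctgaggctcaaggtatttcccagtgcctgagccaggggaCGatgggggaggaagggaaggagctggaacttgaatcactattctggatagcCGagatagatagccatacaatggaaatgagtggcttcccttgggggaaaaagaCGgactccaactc
Pik3cd chr4:149676040-149676339 minus strand: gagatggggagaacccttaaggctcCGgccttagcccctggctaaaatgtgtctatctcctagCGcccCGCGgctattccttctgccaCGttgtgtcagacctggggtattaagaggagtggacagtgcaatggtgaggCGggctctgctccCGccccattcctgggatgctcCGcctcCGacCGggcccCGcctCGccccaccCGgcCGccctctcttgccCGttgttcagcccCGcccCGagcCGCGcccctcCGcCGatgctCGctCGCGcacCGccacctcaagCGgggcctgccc
Tet3 chr6:83441629-83441928 minus strand: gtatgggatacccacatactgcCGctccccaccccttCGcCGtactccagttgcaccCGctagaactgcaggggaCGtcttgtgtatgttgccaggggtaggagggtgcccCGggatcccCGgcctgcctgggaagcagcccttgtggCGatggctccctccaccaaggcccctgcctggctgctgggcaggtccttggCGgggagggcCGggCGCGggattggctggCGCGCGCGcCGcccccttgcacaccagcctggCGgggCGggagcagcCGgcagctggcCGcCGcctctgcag
Gcnt2 chr13:40917384-40917683 plus strand: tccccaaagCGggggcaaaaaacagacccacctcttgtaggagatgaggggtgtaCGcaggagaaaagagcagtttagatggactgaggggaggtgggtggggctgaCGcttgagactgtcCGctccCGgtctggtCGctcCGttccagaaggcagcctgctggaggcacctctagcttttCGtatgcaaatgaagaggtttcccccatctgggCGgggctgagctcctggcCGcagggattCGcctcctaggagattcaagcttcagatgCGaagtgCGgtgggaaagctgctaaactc
Slc22a4 chr11:54028055-54028354 minus strand: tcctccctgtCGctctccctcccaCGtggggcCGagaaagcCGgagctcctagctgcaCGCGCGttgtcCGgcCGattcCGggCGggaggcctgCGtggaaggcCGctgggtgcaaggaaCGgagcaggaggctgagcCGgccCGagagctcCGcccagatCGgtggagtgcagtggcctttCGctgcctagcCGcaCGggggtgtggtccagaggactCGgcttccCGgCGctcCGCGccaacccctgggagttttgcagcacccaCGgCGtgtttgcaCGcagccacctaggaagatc
Ckap4 chr10:84533839-84534138 minus strand: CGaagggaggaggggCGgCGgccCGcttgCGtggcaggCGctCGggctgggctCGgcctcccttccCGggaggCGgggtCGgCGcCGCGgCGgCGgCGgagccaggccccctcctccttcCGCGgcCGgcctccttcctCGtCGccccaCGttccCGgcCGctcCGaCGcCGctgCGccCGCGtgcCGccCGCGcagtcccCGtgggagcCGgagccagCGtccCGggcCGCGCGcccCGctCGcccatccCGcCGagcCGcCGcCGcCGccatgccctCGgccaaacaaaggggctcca
Spats2 chr15:99126595-99126894 plus strand: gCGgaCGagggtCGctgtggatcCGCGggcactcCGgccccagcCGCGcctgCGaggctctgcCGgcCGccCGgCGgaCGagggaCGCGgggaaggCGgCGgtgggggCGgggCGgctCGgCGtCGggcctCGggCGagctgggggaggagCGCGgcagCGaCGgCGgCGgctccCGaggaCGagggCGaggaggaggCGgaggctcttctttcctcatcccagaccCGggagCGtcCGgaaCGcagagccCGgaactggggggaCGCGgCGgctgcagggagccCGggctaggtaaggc
The 8 windows differed widely in CG. Igf1 held 6 CG dinucleotides, Gcnt2 held 13, Ednrb 15, Tet3 22, Pik3cd 26, Slc22a4 29, Spats2 44 and Ckap4 50. A member region covered all 300 bases of the window of every one of these genes except Ckap4, where it covered 162.

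CG was sparser in promoter windows at member regions than in promoter windows in H3K4me3 peaks without a member. Of the 66 windows, 62 themselves overlapped an H3K4me3 peak and 4, among them that of Spats2, did not. The median window at a member held 15 CG dinucleotides (quartiles 10.25 and 22), against 21 (14 and 29) in 11139 windows in H3K4me3 peaks without a member and 13 (4 and 24) in all 21263 windows. The CG count over the count expected from the C and G content had a median of 0.58 (0.43 and 0.75) at members, 0.78 (0.61 and 0.92) in the other H3K4me3 windows and 0.57 (0.23 and 0.83) in all windows. The 62 windows under H3K4me3 had the same medians, 15 and 0.58. Total GC content was alike in the first 2 sets, with medians of 60.7% and 61.3%, and 56.3% in all windows. The medians of CG frequency at members thus lay nearer those of all windows than those of the other H3K4me3 windows. The lower quartiles at members lay between those of the 2 other sets. Windows with few CG dinucleotides (limit of 5) made up 6.06% at members, 7.55% of the other H3K4me3 windows and 32.3% of all windows. In that share the windows at members were nearer the other H3K4me3 windows.

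Motifs of 2 blood transcription factors were counted on both strands. GGAA, the core that ETS factors such as PU.1 read, was in 66 of 66 windows (100%, 94.6 to 100), in 95.6% of the other H3K4me3 windows and in 95.7% of all windows. TGTGGT, the core that RUNX factors read, was in 9 of 66 (13.6%, 6.43 to 24.3), in 12.1% of the other H3K4me3 windows and in 15.0% of all windows. Both shares lay near those of all windows of the same length. Among the printed windows only Slc22a4 held TGTGGT, and Igf1 held the most copies of GGAA with 9.

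The member regions covered 315031 bp in all and were short. Of the 440, 200 were 500 bp long, 143 were 1000 bp, 39 were 750 bp and 11 were 250 bp. A further 31 were 501 bp long and lay off the 250 bp grid on which all others start. Regions of 1250 bp (2), 1500 bp (12) and 2000 bp (2) completed the set. Both 2000 bp regions covered a transcription start, that of Slc22a4 at chr11:54027001-54029000 and that of Ednrb at chr14:103843001-103845000. Members lay on all 19 autosomes, from 7.69% of the list's regions on chromosome 15 to 16.0% on chromosome 11, which held 50 of them.

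Most member regions reached over the edge of an H3K4me3 peak. After the peaks of both libraries were merged, 170 members (38.6%, 34.1 to 43.4) lay inside a peak, 238 (54.1%, 49.3 to 58.8) crossed an edge and 32 (7.27%, 5.03 to 10.1) held a whole peak. The median member had 78.1% of its length under H3K4me3. At the limit of the rule, the 5 smallest overlaps were 2, 7, 10, 15 and 29 bp, and the 5 nearest regions left out lay 3, 4, 12, 14 and 15 bp from a peak. Within 100 bp of that limit stood 36 members and 35 regions left out. The region over the Spats2 start, for example, shared only 15 bp with a peak, and that over the Pik3cd start lay wholly inside one.

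H3K4me3 was listed in both libraries at 369 members, in the untreated library only at 22 and in the vitamin C library only at 49. The untreated peaks covered 57.2% of the members' bases and the vitamin C peaks 61.5%. The histone peaks carry a p-value or q-value from the authors, for which a smaller number is a stronger peak. Members with a peak in both libraries had a median of 1.60e-57 untreated and 5.86e-58 with vitamin C. Those listed in 1 library only had weak peaks, with medians of 8.11e-12 (untreated only) and 7.19e-13 (vitamin C only). The strongest untreated peak, at 3.36e-153, lay over a member inside the Smcr8 gene, 30241 bp from the nearest start in the table. With vitamin C the strongest was near Bloc1s3, at 5.85e-138, and the peak over the 2000 bp Slc22a4 region stood at 1.07e-131 untreated and 9.50e-130 with vitamin C.

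Transcription starts were close to many members, but the majority lay beyond 1 kb of any start in the table used. Starts came from a RefSeq table of 17492 protein-coding genes that holds none on chromosome 18, so the 11 members there were left out. The table also lacks some genes on other chromosomes, for example Spi1, and a member at such a start counts as distant. The shares near a start are therefore lower bounds. Of the other 429, 44 (10.3%, 7.55 to 13.5) held a start, 129 (30.1%, 25.8 to 34.7) had one within 1 kb and 224 (52.2%, 47.4 to 57.0) within 5 kb. The median distance was 4155 bp, against 33753 bp for the regions of the list outside H3K4me3, of which 3.55% had a start within 1 kb. Merged H3K4me3 peaks had a start within 1 kb in 24.6% and a median distance of 15909 bp. Of the 224 members within 5 kb, 144 (64.3%, 57.6 to 70.6) had their centre downstream of the start, inside the transcribed side. Of the 129 within 1 kb it was 72 (55.8%, 46.8 to 64.5), an interval that includes an even split. The same share was not computed for other H3K4me3 peaks or for the rest of the list. In all, 306 members (69.5%, 65.0 to 73.8) had their centre in the span of a protein-coding gene, against 57.2% (55.6 to 58.8) of the regions outside H3K4me3.

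**Figure D1:**
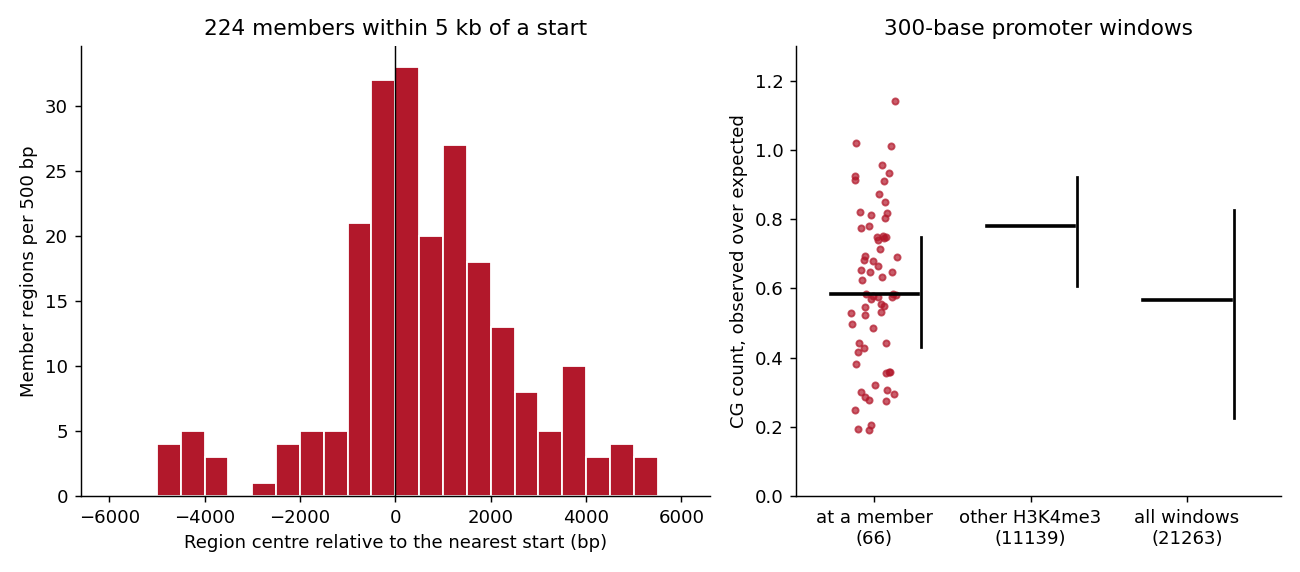
Left, number of member regions per 500 bp by the distance in bp of their centre from the nearest start, for the 224 within 5 kb, positive on the transcribed side. Right, observed over expected CG in 300-base promoter windows, with points for the 66 windows at members, thick lines for medians and thin lines for quartiles: the median at members (0.58) lies below that of other H3K4me3 windows (0.78).

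H3K27ac, which is placed on active regulatory DNA, was listed at 252 members (57.3%, 52.5 to 61.9) in 1 or both libraries. It overlapped 227 members untreated (51.6%, 46.8 to 56.3) and 240 with vitamin C (54.5%, 49.8 to 59.3). Both libraries listed it at 215, the untreated library alone at 12, the vitamin C library alone at 25, and neither at 188. H3K4me1, a mark of enhancers and promoter flanks, overlapped 253 members untreated (57.5%, 52.7 to 62.2) and 170 with vitamin C (38.6%, 34.1 to 43.4). A peak was listed untreated only at 137 members and with vitamin C only at 54. The whole H3K4me1 list was also shorter with vitamin C, at 45657 peaks against 57750, whereas the H3K27ac lists held 36953 and 35970. Whether library depth or peak calling moves with these counts was not tested.

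Outside H3K4me3 the same list rarely met these marks. Of its 3688 other regions, 1.44% (1.08 to 1.88) overlapped untreated H3K27ac and 13.04% (11.97 to 14.2) untreated H3K4me1. The 54 regions in H3K4me3 that overlapped a deMR had more, with 72.2% (58.4 to 83.5) in untreated H3K27ac and 77.8% (64.4 to 88.0) in untreated H3K4me1. For both untreated marks the intervals of the members and of these 54 regions do not overlap. With vitamin C that held for H3K27ac (81.5%, 68.6 to 90.7, at the 54) and not for H3K4me1 (50.0%, 36.1 to 63.9). Regions of one cell culture share their library, and no test over samples could be made of these differences.

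**Figure D2:**
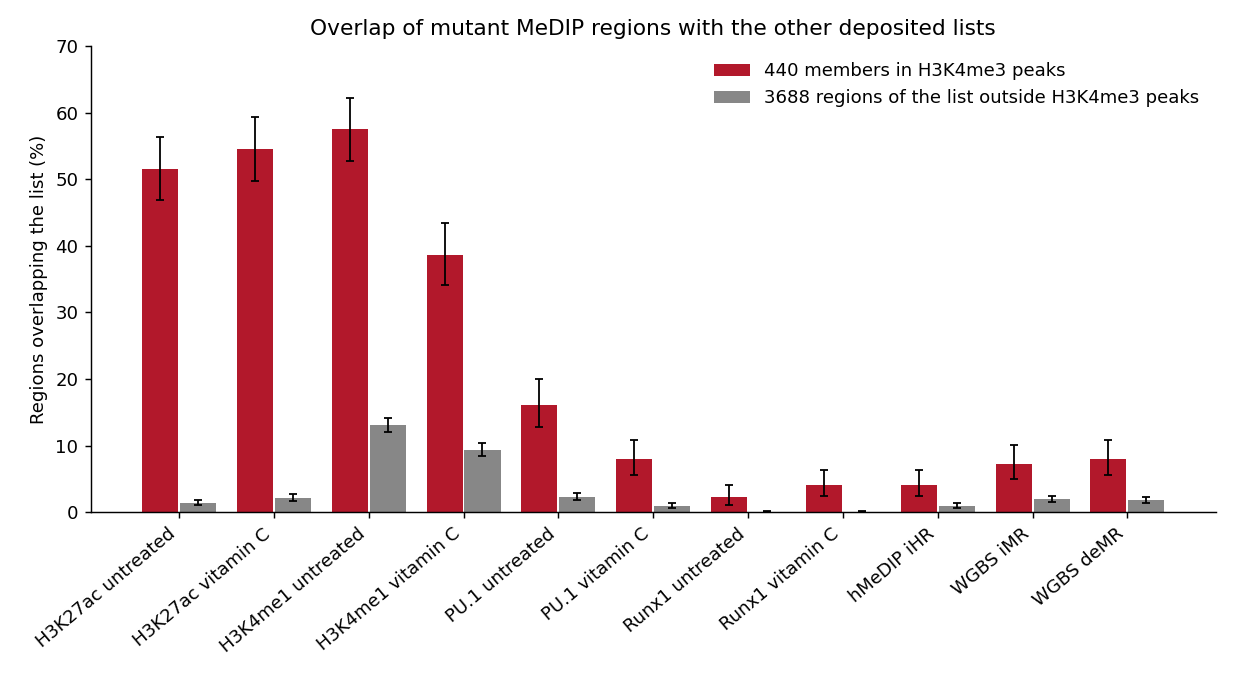
Share in % of the member regions (red) and of the regions of the list outside H3K4me3 (grey) that overlap the H3K27ac, H3K4me1, PU.1, Runx1, hMeDIP and WGBS lists, with exact 95% intervals as bars. In the lists drawn, members range from 2.27% (Runx1 untreated) to 57.5% (H3K4me1 untreated), and every grey bar is lower than its red neighbour.

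Since H3K4me3 peaks as a class carry H3K27ac, the 445 peaks with a member were also set beside the 48257 autosomal peaks without one, which include those over the 54 regions with a deMR. H3K27ac untreated was at 64.0% (59.4 to 68.5) of the first and 66.1% (65.7 to 66.6) of the second. Peaks with a member were longer, however, with a median of 1322 bp against 830 bp, and longer peaks more often had H3K27ac. An overlap of 1 bp is more easily met by a longer peak, so the greater length is a description and not a finding. Within the classes of length below 2000 bp, untreated H3K27ac was less frequent at peaks with a member. It stood at 24.3% (15.1 to 35.7) of peaks with a member and 37.7% of the others under 500 bp, at 43.3% (33.3 to 53.7) and 60.6% from 500 bp to 1 kb, and at 65.3% (56.3 to 73.6) and 85.0% from 1 to 2 kb. At 2000 bp or more the shares were 96.0% (91.5 to 98.5) and 97.9%, so the gap was seen in the shorter peaks. With vitamin C, H3K27ac was at 28.4% (18.5 to 40.1) against 36.3% under 500 bp, within the interval. From 500 bp to 1 kb it was at 46.4% (36.2 to 56.8) against 57.7%. From 1 to 2 kb it was at 65.3% (56.3 to 73.6) against 83.0%. At 2 kb or more the vitamin C shares were 95.3% (90.6 to 98.1) and 97.6%. Untreated PU.1 was also lower in value at peaks with a member in each class, at 13.5% (6.68 to 23.5) against 24.1% under 500 bp, 28.9% (20.1 to 39.0) against 33.7% from 500 bp to 1 kb, 31.5% (23.4 to 40.4) against 46.0% from 1 to 2 kb and 47.3% (39.1 to 55.6) against 60.7% beyond. From 500 bp to 1 kb that difference lay within the interval. A start within 1 kb was more frequent at peaks with a member from 500 bp to 1 kb (22.7%, 14.8 to 32.3, against 13.4%) and from 1 to 2 kb (40.2%, 31.2 to 49.6, against 29.9%). Under 500 bp it was at 8.22% (3.08 to 17.0) and 7.65%, and at 2 kb or more at 66.0% (57.7 to 73.6) and 59.7%, both within the interval.

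**Figure D3:**
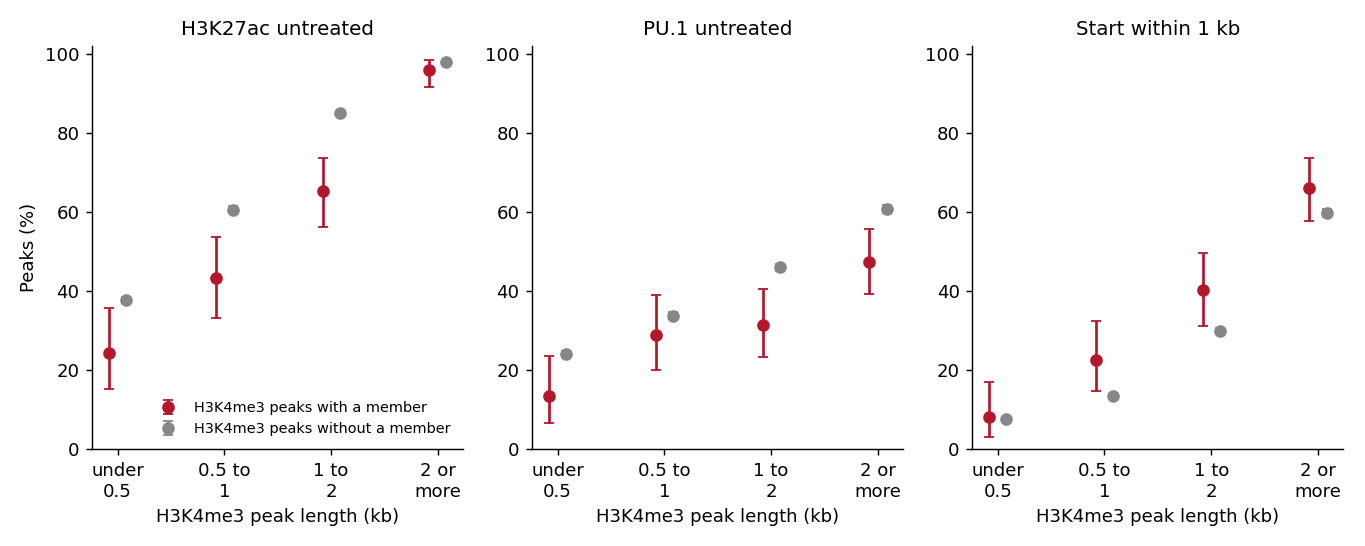
Share in % of merged H3K4me3 peaks that overlap untreated H3K27ac, overlap untreated PU.1 or have a start within 1 kb, by peak length in kb, for peaks with a member (red) and without (grey), with exact 95% intervals. Untreated H3K27ac is lower at peaks with a member in each length class below 2000 bp, for example 65.3% against 85.0% from 1 to 2 kb.

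Members with H3K4me3 in a single library had untreated H3K27ac less often. It was at 209 of the 369 members with H3K4me3 in both libraries (56.6%, 51.4 to 61.8), at 5 of the 22 with the untreated peak only (22.7%, 7.82 to 45.4) and at 13 of the 49 with the vitamin C peak only (26.5%, 14.9 to 41.1). In the vitamin C library H3K27ac was at 20 of those 49 (40.8%, 26.997 to 55.8) and at 58.3% (53.0 to 63.3) of members with both peaks, with overlapping intervals. A start within 1 kb was at 33.4% (28.6 to 38.6) of members with both peaks and at 5 of the 49 with the vitamin C peak only (10.2%, 3.40 to 22.2). For H3K4me1 and PU.1 the intervals overlapped. Untreated H3K4me1 was at 58.5% (53.3 to 63.6) of members with both peaks, 50.0% (28.2 to 71.8) with the untreated peak only and 53.1% (38.3 to 67.5) with the vitamin C peak only. For untreated PU.1 the shares in that order were 16.5% (12.9 to 20.7), 9.09% (1.12 to 29.2) and 16.3% (7.32 to 29.7).

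PU.1 and Runx1 are DNA-binding factors of the myeloid lineage, PU.1 for its macrophage and granulocyte branches and Runx1 for blood stem cells and progenitors. PU.1 peaks overlapped 71 members untreated (16.1%, 12.8 to 19.9) and 35 with vitamin C (7.95%, 5.60 to 10.9). Of these, 33 had a peak in both libraries, 38 untreated only and 2 with vitamin C only. The authors' score per peak, which has no stated definition, was higher with vitamin C at 3 of the 33. Runx1 went the other way, with 10 members untreated (2.27%, 1.10 to 4.14) and 18 with vitamin C (4.09%, 2.44 to 6.39). Of these, 9 had a peak in both libraries, 1 untreated only and 9 with vitamin C only, and the score was higher with vitamin C at 9 of 9. Both followed their whole lists, which went from 61611 to 23522 PU.1 peaks and from 3908 to 6250 Runx1 peaks, so the counts describe these libraries and nothing particular to the members. Scores of 2 libraries may also differ in scale, which was not tested.

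The members with the highest PU.1 scores lay mostly away from starts in the table used. The highest untreated score was 219.2 (99.4 with vitamin C), 28040 bp from the nearest start, that of Zfp825. The 2000 bp region over the start of Slc22a4, an organic cation and carnitine transporter, followed with 140.4 and 45.6. Next were regions near Acyp1 (132.5 and 79.1), in Stpg1 (120.7 and 81.3) and in Arsg (78.8 and 48.0). A region in Dhx37 was one of the 3 with a higher score in the vitamin C library, at 39.7 untreated and 61.5. By distance, PU.1 untreated was at 12 of 129 members within 1 kb of a start (9.30%, 4.90 to 15.7) and at 43 of 205 beyond 5 kb (21.0%, 15.6 to 27.2). With vitamin C it was at 2 of those 129 and 24 of those 205.

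Among members with Runx1 peaks, the region at the start of Rassf4, a Ras-association protein, had a score of 20.9 untreated and 130.6 with vitamin C. That beside Abhd17a, a depalmitoylase, had 47.7 and 84.9. At the start of Pik3cd, the leukocyte catalytic subunit of phosphoinositide 3-kinase, the scores were 7.62 and 84.5. A region in Csf2ra, the receptor chain for GM-CSF, had 20.7 and 27.5, and one near Mast3 15.2 and 45.4. A region near Gapvd1 had a peak with vitamin C only, of score 42.4.

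**Figure D4:**
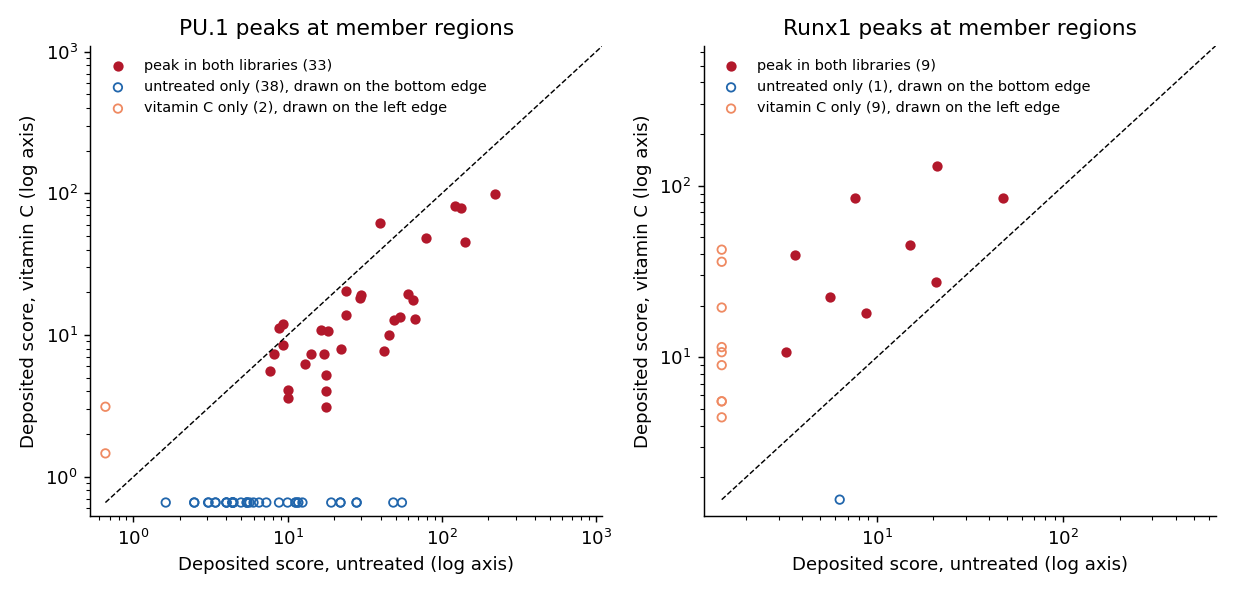
Deposited peak scores (no unit, log axes) at member regions, untreated on the x axis and vitamin C on the y axis, for PU.1 (left) and Runx1 (right), with the dashed line marking equal scores. Of 33 regions with PU.1 peaks in both libraries 3 lie above the line, and all 9 such Runx1 regions do.

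PU.1 and Runx1 peaks sat on members that also carried H3K27ac. H3K27ac, in 1 or both libraries, was at 58 of the 73 members with PU.1 (79.5%, 68.4 to 88.0) and at 194 of the 367 without (52.9%, 47.6 to 58.1). It was at 17 of the 19 with Runx1 (89.5%, 66.9 to 98.7) and at 235 of 421 without (55.8%, 50.9 to 60.6). PU.1 and Runx1 shared 3 members.

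The other cytosine lists met few members. WGBS, which reads methylation base by base after bisulfite conversion, gave 2 lists: iMR, attached to the untreated IDH1 R132H sample, and deMR, attached to the vitamin C sample. The iMR list overlapped 32 members (7.27%, 5.03 to 10.1) and the deMR list 35 (7.95%, 5.60 to 10.9), and no member overlapped both. A count of 0 allows a share of up to 0.682%, taken as 3 counts of the total, or 0.835% by the exact interval. With shares this small few members could be in both lists, and no such share over the whole list was computed. Nothing particular to the members is read from that 0. Among the regions outside H3K4me3 the shares in the iMR and deMR lists were 1.90% (1.48 to 2.39) and 1.76% (1.36 to 2.24). Of the 54 regions in H3K4me3 with a MeDIP deMR, none overlapped a WGBS iMR, which allows up to 5.56%, and 13 (24.1%, 13.5 to 37.6) overlapped a WGBS deMR. The hydroxymethylation list iHR, attached to the vitamin C sample, overlapped 18 members (4.09%, 2.44 to 6.39) and 0.976% (0.685 to 1.35) of the regions outside. H3K4me3 peaks without a member overlapped the same 3 lists in 1.11% (WGBS iMR), 3.38% (WGBS deMR) and 2.06% (iHR) of cases, against 8.54%, 9.66% and 7.87% of peaks with one. Those shares cover all lengths, and peaks with a member were longer. Within each length class the 3 shares were also higher in value at peaks with a member. The difference lay within the interval for WGBS iMR under 500 bp (1.35%, 0.0342 to 7.30, against 0.466%). It also did for WGBS deMR from 500 bp to 1 kb (6.19%, 2.30 to 12.98, against 3.41%). For iHR it did from 1 to 2 kb (4.03%, 1.32 to 9.16, against 2.43%). In the other classes the interval lay above the second share.

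H3K4me3 was listed in both libraries at 31 of the 32 members with a WGBS iMR and at 25 of the 35 with a WGBS deMR, where the share over all members was 83.9% (80.1 to 87.2). WGBS iMRs were at none of the 49 members with H3K4me3 in the vitamin C library only, which allows up to 6.12%, and at 31 of the 369 with both (8.40%, 5.78 to 11.7). Their exact intervals overlap, since that of the 49 reaches 7.25%. WGBS deMRs were at 10 of the same 49 (20.4%, 10.2 to 34.3) and at 25 of the 369 with both (6.78%, 4.43 to 9.84). The deMR list is attached to the WGBS sample given vitamin C, and the vitamin C peaks come from a separate library with that treatment. What the deMR list compares is not stated in the sources used here. A region in the span of Spi1, the gene of PU.1, was one of the 10. Its H3K4me3 peak was listed with vitamin C only, at 2.22e-10, and its H3K27ac peak at 1.69e-63 untreated and 9.18e-210 with vitamin C. It held an untreated PU.1 peak of score 6.52 and none with vitamin C, and shared 318 bp with the WGBS deMR. A region in Klhl2 had the same pattern of H3K4me3, at 6.12e-12 with vitamin C only, and lay in both a WGBS deMR and an iHR.

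WGBS iMRs covered several starts among the members. At Ednrb, the endothelin receptor type B, a WGBS iMR of 1349 bp shared 1324 bp with the member, and the MeDIP iMR list of the vitamin C sample shared 1000 bp. Only 1 other member, in Scarf2, was in both of those lists. The Ednrb region had H3K4me3 in both libraries (4.10e-41 untreated, 1.03e-54 with vitamin C) and no listed H3K27ac, H3K4me1, PU.1 or Runx1 peak, and its gene had 0 reads in both RNA libraries. The region at Aff3 shared 584 bp with an iMR of 1065 bp, that at Itga1 661 bp with one of 867 bp, and that at Gcnt2 held all 294 bp of one. Those at the starts of Pik3cd and Tet3 shared 384 bp and 191 bp. The region at Ckap4, a membrane protein of the endoplasmic reticulum, held both a WGBS iMR of 240 bp and an iHR of 1000 bp that matched the member from end to end.

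RNA was read from 131 of the 134 genes with a start within 1 kb of a member. RPKM scales reads by gene length and library, so levels can be set side by side between genes. The libraries held 86804487 reads untreated and 111453443 with vitamin C. Of the 131 genes, 93 (71.0%, 62.4 to 78.6) had at least 1 RPKM untreated, against 82.0% (81.3 to 82.8) of genes within 1 kb of any H3K4me3 peak and 46.0% of all genes. The median level was 5.09 RPKM, against 11.6 for H3K4me3 genes and 0.25 for all genes, and 47 genes (35.9%, 27.7 to 44.7) reached 10 RPKM, against 54.0%. Genes at members thus stood below the set of all genes within 1 kb of an H3K4me3 peak. That set can include genes at members. The rules also differ, since a start within 1 kb of a member need not lie within 1 kb of a peak. As a check of the label, 16 of 17 myeloid progenitor markers had at least 1 RPKM untreated, and none of 8 B cell and 1 of 9 T and NK cell markers did. Marker lists of mast cells and basophils (6 of 10 at 1 RPKM or more), erythroid cells (4 of 10), megakaryocytes (3 of 8) and fibroblasts (2 of 8) were partly present. Summed levels went from 5566 RPKM untreated to 3938 with vitamin C for progenitor markers, from 2121 to 2859 for mast cells and basophils (Cpa3 alone 1863 and 2488), and from 1377 to 1595 for erythroid cells (Hbb-bt alone 967 and 1071). Megakaryocyte markers summed to 161.9 and 155.5 RPKM, fibroblast markers to 319.9 and 445.9, T and NK cell markers to 4.47 and 4.50 and B cell markers to 0.813 and 0.511. By the 2-fold limit used below, 5 of 17 progenitor markers were lower, 2 of 8 measured mast cell and basophil markers and 3 of 6 erythroid markers were higher, and none went the other way in these lists. Their part in the differences of the genes below was not tested.

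H3K27ac on the member went with the level of the gene. Where the member overlapped H3K27ac in 1 or both libraries, 68 of 78 genes (87.2%, 77.7 to 93.7) had at least 1 RPKM untreated and the median was 9.01 RPKM. Without H3K27ac it was 26 of 54 genes (48.1%, 34.3 to 62.2) and 0.859 RPKM. Of the 12 genes listed at 0 untreated, 10 belonged to members without H3K27ac and 2 to members with it. A gene with 2 members can count in both sets.

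Among the 10 genes with the highest untreated level near a member, Pik3cd had 146.6 RPKM untreated and 135.4 with vitamin C. Cxcr4, the chemokine receptor that holds blood progenitors in the marrow, had 120.5 and 137.0, with the member 702 bp from its start. Ccnd3, the G1 cyclin D3, had 115.0 and 172.0. Gata2, a transcription factor of stem cells and mast cells, had 91.4 and 141.8, with the member 664 bp upstream. Ckap4 had 72.5 and 91.9. The other 5, Abhd17a, Fam32a, Tnpo1, Supt4a and Trappc6a, had untreated levels from 44.1 to 68.3 RPKM. At the other end, Ednrb, Efna1 and Nkx6-2 were listed at 0 in both libraries.

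Few genes at members differed by 2-fold with vitamin C. A gene counted as measured when either library gave it at least 1 RPKM, and the log2 change adds 0.5 RPKM to both levels, which understates the change of low genes. Of 96 measured genes at members 2 were at least 2-fold higher, where the background over all 10436 measured genes is 2.38%. A further 5 were at least 2-fold lower, where the background is 1.92%. The median log2 change was −0.06, against −0.04 over all measured genes. As shares of the 96 genes these are 2.08% (0.253 to 7.32) higher and 5.21% (1.71 to 11.7) lower. The higher share is near its background. The lower share is above its background in value, and its interval, from 5 genes, includes the background.

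The 5 lower genes had untreated levels from 1.29 to 8.13 RPKM. Pcp4l1 had 2.61 RPKM untreated and 0.0614 with vitamin C (299 and 9 reads), a ratio of 42.4 (22.1 to 93.8) whose interval is wide because of the few reads. Igf1, insulin-like growth factor 1, had 3.40 and 0.382 RPKM, 8.91-fold lower (7.96 to 9.98). Its region covers the start and lay wholly under H3K4me3, which was listed at 3.69e-86 untreated and 7.59e-96 with vitamin C. Plekhh2 had 1.29 and 0.198 RPKM, 6.51-fold lower (5.37 to 7.93). Aff3, a nuclear protein of the AF4 family, had 8.13 and 2.98 RPKM, 2.72-fold lower (2.57 to 2.88). Flt3, the receptor tyrosine kinase of early progenitors, had 6.97 and 2.95 RPKM, 2.36-fold lower (2.24 to 2.49). The Flt3 member lay 512 bp upstream of the start, and its H3K27ac peak was listed untreated (5.92e-53) and not with vitamin C.

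Of the 2 higher genes, Slc27a1, a fatty acid transporter, had 26.0 RPKM untreated and 59.8 with vitamin C, 2.30-fold higher (2.23 to 2.37). Gm11992 had 0.314 and 1.48 RPKM, from 55 and 331 reads (4.72-fold, 3.53 to 6.39). Just short of the 2-fold limit on the log2 scale stood, on the lower side, Dse (2.77 and 1.25 RPKM) and Cdc42ep4 (12.9 and 6.81 RPKM), and on the higher side Vopp1 (6.28 and 12.9 RPKM) and Spats2 (7.60 and 15.4 RPKM). Vcan, the matrix proteoglycan versican, had 4.15 and 7.65 RPKM, and its region shared 363 bp with a WGBS iMR. The authors' deposited table of higher genes holds 5 genes at members (Slc27a1, Gm11992, Vopp1, Spats2 and Vcan), where the background is 3.93% of measured genes. Their deposited table of lower genes holds 5 (Pcp4l1, Igf1, Plekhh2, Aff3 and Flt3), where the background is 1.72%. Those tables were drawn from the same libraries and are not independent of the RPKM values.

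**Figure D5:**
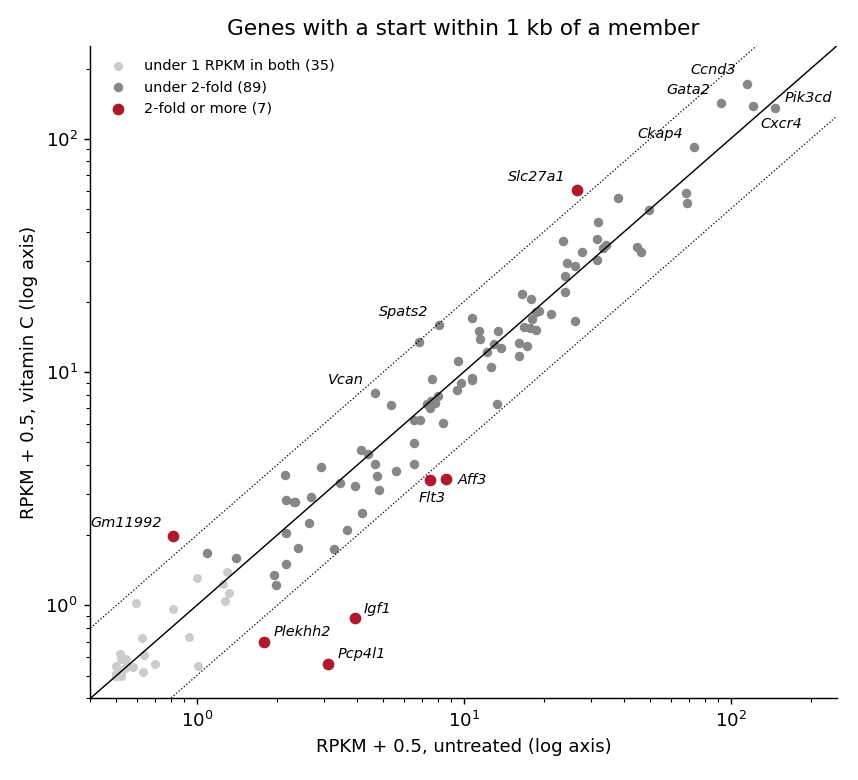
RPKM + 0.5 of the 131 genes with a start within 1 kb of a member, untreated on the x axis and vitamin C on the y axis (log axes), with the solid line at equal levels and dotted lines at 2-fold. The 7 red genes differ by 2-fold or more, 89 grey genes by less, and 35 pale genes stayed under 1 RPKM in both libraries.

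Gene lists of methylation and blood biology had few genes at members, and nothing particular to a list is read from its count. Of all genes with a start in the table, 134 of 17492 (0.766%) had one within 1 kb of a member and 250 (1.43%) within 5 kb. Of 19 genes of cytosine methylation with a start in the table, only Tet3 lay within 1 kb. Tet3, which oxidises 5-methylcytosine, had 15.6 RPKM untreated and 12.9 with vitamin C, and its start lay in a WGBS iMR with H3K4me3 in both libraries and no H3K27ac. Of 31 myeloid receptor and signalling genes there were 2, Cxcr4 and Flt3, and of 26 myeloid and stem cell transcription factors 1, Gata2. Of 26 tumour suppressors known for promoter methylation there was 1, Rassf1, at 12.9 and 14.5 RPKM. Ephrin, semaphorin and endothelin signalling had the most, 4 of 33, Ednra, Ednrb, Efna1 and Plxnb2, and none of these passed 1 RPKM in either library.

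Developmental transcription factors, which are often the targets of promoter methylation in tumours, had 2 of 67 with a start within 1 kb, Gata2 and Nkx6-2. Within 5 kb there were 4, with Meis1 and Nkx2-3 added. Meis1, the partner of HOXA9, had 18.3 RPKM untreated and 10.0 with vitamin C (1.82-fold lower, 1.77 to 1.87), with the member 3969 bp away, and Nkx2-3 was listed at 0 in both libraries. Imprinted genes (27 with a start), germline genes (26) and housekeeping genes (11) had none within 5 kb.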

How the data were processed

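The lists and tables were used as deposited. Build mm10 and the tools MACS2 2.1.0.2, Picard, SAMtools (versions 0.1.16, 0.1.8 and 0.1.2), Novoalign 3.02.08, BWA and CASAVA 1.8.2 are named in the submitters' processing notes, without role or order. Peaks were listed per library by the authors. Each peak of their histone lists has a p-value or q-value (which one is not stated), and the PU.1 and Runx1 lists a score that the authors deposited without a definition. The MeDIP, hMeDIP and WGBS lists hold positions only. The RNA files hold a read count and an RPKM value per gene, both deposited by the authors. Read counter and annotation: not given in the sources used here. A total of 3 unnamed columns per RNA table were not used.

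Overlaps were computed with Python 3.11.15, pandas 2.3.3, numpy 2.4.6 and scipy 1.17.1, at 1 bp or more, after repeated PU.1 and Runx1 intervals were removed. Shares have exact Clopper-Pearson intervals at 95%, and ratios of RPKM an interval from the exact binomial split of the reads. A count of 0 allows 3 counts of the total. The overlap and fold computations were tested on simulated data. MeDIP depth is unknown. With 1 library per group there was no replicate spread. The members and the gene lists (10 lists, 7 marker lists) were chosen with earlier results of these data known. Named items were the longest regions, the strongest peaks per list, and genes within 1 kb with the largest differences, the highest RPKM, a deposited table or a gene list. The comparison of peaks by length class, and Itga1, Smcr8, Spi1, Dse and Cdc42ep4 by name, were chosen after values were seen. Alternatives covered overlap, distance, pseudocount, filter and peak strength.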

Additional observations from a re-analysis of the deposited data

How the results depend on the processing

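Of 56 alternatives, 37 kept the value within its interval (shares, median) or within 1.5 times (counts), and 19 moved it. The number of member regions ranged from 304 (region covered to 50% or more) to 435 (no deMR within 1 kb), 416 with H3K4me3 peaks at or below 1e-10 and 369 with a peak in both libraries. With only the stronger part of each list, split at its median, the shares became 36.4% (H3K27ac untreated), 37.5% (H3K27ac vitamin C), 23.2% (H3K4me1 untreated), 13.2% (H3K4me1 vitamin C) and 10.2% (PU.1 untreated), since the lists then hold fewer peaks. Members with H3K4me3 in both libraries had H3K27ac untreated at 56.6%. An overlap of 100 bp left PU.1 with vitamin C at 5.45%. Regions within 1 kb raised iHR to 7.05% and WGBS deMR to 11.4%, and the start limit gave 52.2% at 5 kb and 10.3% inside the region. Genes 2-fold or more higher numbered 4 within 5 kb, 4 with a pseudocount of 0.1 RPKM, 1 with 1 RPKM, 1 among genes of at least 5 RPKM and 10 at 1.5-fold. Genes lower numbered 2 at 5 RPKM or more and 13 at 1.5-fold. A limit of 5 RPKM left 50.4% of genes at members. No paired analysis was possible because every group held 1 library. Depth was known for the RNA-seq only, and the start table covers part of the genes.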

Other observations

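A member in the span of Stat3, a transcription factor of cytokine signalling, had H3K4me3 in both libraries (4.81e-45 untreated, 6.12e-43 with vitamin C), H3K27ac in both (1.54e-182 and 6.22e-159) and shared 105 bp with a WGBS deMR. A member 907 bp from a start of Mllt3, a reader of acylated histones, shared 77 bp with a WGBS iMR, and its gene had 6.37 RPKM untreated and 5.75 with vitamin C. A member 476 bp from the start of Fto, an RNA demethylase that uses 2-oxoglutarate, shared 124 bp with a WGBS deMR, and its gene had 11.7 RPKM in both libraries. The region over the start of Fut4, a fucosyltransferase, shared 211 bp with a WGBS iMR, and its gene had 0.511 RPKM untreated and 0.0499 with vitamin C (136 and 17 reads, 10.2-fold lower, 6.15 to 18.1). Fut4 stayed under 1 RPKM in both libraries and was therefore not among the measured genes. These genes were named after their values were seen.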
